A study of Homo sapiens with 10 samples.

Results

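MYC is a transcription factor that binds DNA with its partner MAX and drives growth programmes, among them the making of ribosomes. Ribosomes are built in the nucleolus. RNA polymerase I transcribes a precursor of the ribosomal RNA, small nucleolar ribonucleoproteins (snoRNPs) guide its chemical modification, and a long series of assembly factors cuts, folds and packs it into the small and the large subunit. MYC and 38 genes of this pathway, 39 genes in all, were described across the 5 groups of an mRNA-sequencing experiment. They were chosen by gene symbol, out of 52402 symbols in the count tables, at a time when earlier results of these data were known. Of the 39, 38 passed the filter on low counts, as did 14884 of all symbols.

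The cells were BEAS2B, a human bronchial epithelial cell line, and all groups received Lipofectamine 2000, a lipid transfection reagent. The groups were miRcontrol (genotype label WT, a scrambled miRNA control), miR3124_mimic (miR-3124-5p Overexpression), miR200b_mimic (miR-200b-3p Overexpression), miR92b_inhibitor (miR-92b Knockdown, with no arm named in the labels) and MIX, which received both mimics and the inhibitor together. The first 4 groups were transfected at 50 nM, no source used here gives the amount of each RNA in MIX, and RNA was taken at 48 h in every group. A mimic is a synthetic RNA that acts as the mature miRNA, and an inhibitor is a synthetic RNA that binds and blocks it. Each group had 2 libraries of a single cell line, and no source used here says whether they came from separate transfections, so the p-values may cover technical spread only. Library totals ran from 13587666 to 18503890 counts. Epithelial keratins were abundant (KRT8, KRT18 and KRT7 at 601 CPM or more in every library), while KRT19 lay between 0.615 and 15.1 CPM, KRT5, a marker of airway basal cells, reached only 0.484 CPM and the leukocyte marker PTPRC at most 2 counts. EPCAM and CDH1, epithelial adhesion genes, were each under 0.5 CPM in the libraries without the miR-200b-3p mimic, and their highest levels were 10.2 and 10.9 CPM with it. The mesenchymal markers were abundant as well, FN1 at 1370 to 3440 CPM, CDH2 at 219 to 259 CPM and VIM, the gene of vimentin, at 799 to 4250 CPM. VIM moved with a group described here: it was at 3894 and 3707 CPM in miRcontrol and 827 and 799 in miR3124_mimic. Whether this change has a part in the results for that mimic was not tested. The unit of a level is normalized CPM, which divides a count by the scaled total of its library. Differences are log2 fold changes with their standard error (SE), n = 2 libraries per group, and each adjusted p is from edgeR's quasi-likelihood test with the Benjamini-Hochberg adjustment over all 14884 genes. A gene was called changed at an adjusted p under 0.05. Such levels are relative to all other RNA in a library, and a bulk measurement cannot tell less RNA per cell from fewer cells that make it.

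The 3 single transfections moved the pathway in different ways. With the miR-3124-5p mimic, 30 of the 38 tested genes were lower than in miRcontrol and 2 were higher, with a median log2 fold change of -0.33. With the miR-92b inhibitor, 29 were higher and none was lower, with a median of 0.24. The miR-200b-3p mimic raised 11 and lowered 11, with a median of -0.02. In MIX, 21 were higher and 3 were lower, with a median of 0.14. The background matters here, because many genes changed. Over all tested genes, 25.3% were lower and 25.7% higher with the miR-3124-5p mimic, 18.2% lower and 17.5% higher with the miR-92b inhibitor, 19.1% lower and 21.4% higher with the miR-200b-3p mimic, and 21.1% lower and 21.5% higher in MIX. The median over all tested genes lay within 0.01 of 0 in each of these comparisons. The scaling of the libraries holds that median near 0, so it cannot show a shift shared by all genes. The changes were modest in size: none of the 38 genes was called at a fold of at least 2 in either direction against miRcontrol. PES1 fell just short of it with the miR-3124-5p mimic (fold 0.5001). RRN3 had a log2 fold change of 1.08 in MIX but was not called. Of all tested genes, 8.13% were called at such a fold with the miR-3124-5p mimic, 4.88% with the miR-200b-3p mimic, 1.91% with the miR-92b inhibitor and 4.67% in MIX. These 4 comparisons share the same miRcontrol libraries.

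**Figure D1:**
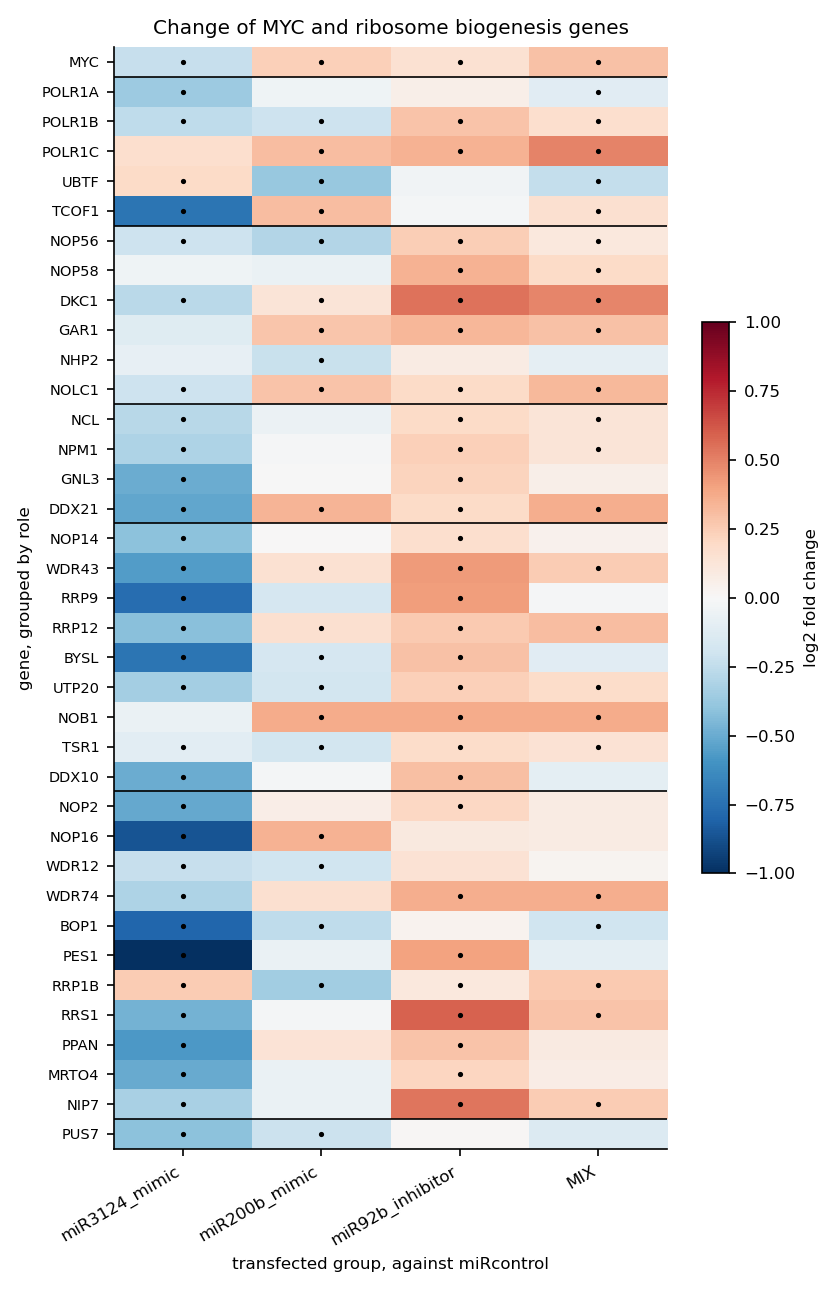
Log2 fold change of 37 genes (rows, grouped by role and divided by lines) in each transfected group against miRcontrol (columns), with a dot where the adjusted p was under 0.05. The miR3124_mimic column is mostly blue (lower), the miR92b_inhibitor column is red (higher) or near 0, and the miR200b_mimic column is mixed. RRN3 and FBL, both at 25 counts or fewer in every library, are left out.

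MYC itself changed by little. Its level was 73.7 and 70.1 CPM in miRcontrol and 63.2 and 59.7 in miR3124_mimic. Its libraries had 80.0 and 79.7 with the inhibitor, 84.1 and 85.8 with the miR-200b-3p mimic and 84.3 and 91.5 in MIX. Both miR3124_mimic libraries lay below both miRcontrol libraries, and those of the other transfected groups lay above them. Against miRcontrol, MYC fell by 0.23 on the log2 scale with the miR-3124-5p mimic (SE 0.0561, adjusted p = 5.93e-04, a change of -14.6%). It rose by 0.24 with the miR-200b-3p mimic (SE 0.054, adjusted p = 2.50e-04) and by 0.29 in MIX (SE 0.0525, adjusted p = 1.03e-05). The rise of 0.15 with the miR-92b inhibitor (SE 0.0534, adjusted p = 0.0224) was no longer past the threshold with DESeq2 or without miRcontrol replicate 2 (0.12) or without either inhibitor library (0.15 and 0.16). Ordered by mean level, MIX stood highest, followed by miR200b_mimic, miR92b_inhibitor, miRcontrol and miR3124_mimic. MIX and miR200b_mimic differed by 0.05 (adjusted p = 0.505), and miR200b_mimic and miR92b_inhibitor by 0.09 (adjusted p = 0.158), neither past the threshold. MIX exceeded miR3124_mimic by 0.52 (SE 0.0542, adjusted p = 3.21e-11). So MYC and the median of the pathway had the same sign with the miR-3124-5p mimic, the miR-92b inhibitor and the mixture. With the miR-200b-3p mimic, MYC was higher while the pathway's median was near 0.

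In miRcontrol, per kilobase of exon, the most abundant of the 37 genes that could be read (all but RRN3 and FBL, described with their roles) were NPM1 (403 CPM per kb), NCL (147) and DDX21 (96.7). NPM1 and NCL encode nucleophosmin and nucleolin, major proteins of the nucleolus, and DDX21 an RNA helicase of the nucleolus. MYC stood at 23.9 CPM per kb, place 18 of 37. NPM1 has many processed pseudogenes, so its reads may be split between copies. In GRCh38 (GENCODE v29), PES1 spans chr22:30576625-30607083, RRP9 chr3:51933430-51941941, BYSL chr6:41921188-41933046, NOP16 chr5:176383938-176388975, TCOF1 chr5:150357629-150400308, DDX21 chr10:68956128-68985073 and DKC1 chrX:154762742-154777689, and the counts cover these genes' exons as the authors' counting defined them.

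Among the 38 tested genes, the deepest falls with the miR-3124-5p mimic were those of large-subunit factors. Of these 11 factors, 10 fell and 1 rose, with a median log2 fold change of -0.50. Over all tested genes, 25.3% fell and 25.7% rose. This depth did not extend to the further assembly factors counted below. There the median was -0.22 for 35 other large-subunit factors and -0.25 for 39 other small-subunit factors, with NOC4L of the small subunit at -1.21. PES1 and BOP1 encode 2 of the proteins of the PeBoW complex, which is needed for processing of the precursor to the large subunit's RNAs. PES1 had 119.6 and 124 CPM in miRcontrol and 60.3 and 61.5 in miR3124_mimic. The inhibitor libraries had 159 and 162, those of MIX 117 and 110.5 and those of the miR-200b-3p mimic 118 and 115. The miR3124_mimic libraries were far below all others and the inhibitor libraries far above, with miR200b_mimic and MIX just under the miRcontrol range. The log2 fold change of PES1 was -1.00 with the miR-3124-5p mimic (SE 0.0502, adjusted p = 4.05e-22) and 0.40 with the miR-92b inhibitor (SE 0.044, adjusted p = 3.85e-10). It was -0.07 with the miR-200b-3p mimic (adjusted p = 0.26) and -0.10 in MIX (adjusted p = 0.0786).

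BOP1 behaved differently with the inhibitor. It had 133 and 128 CPM in miRcontrol and 78.5 and 72.6 in miR3124_mimic. In MIX there were 114.5 and 112, with the inhibitor 132 and 136 and with the miR-200b-3p mimic 106 and 112. BOP1 fell by 0.79 on the log2 scale with the miR-3124-5p mimic (SE 0.0493, adjusted p = 1.14e-18), by 0.26 with the miR-200b-3p mimic (adjusted p = 1.43e-05) and by 0.20 in MIX (adjusted p = 2.85e-04). With the inhibitor its libraries overlapped miRcontrol (log2 fold change 0.04, adjusted p = 0.558). The third protein of the complex, WDR12, had -0.23 with the miR-3124-5p mimic (adjusted p = 0.00684), -0.20 with the miR-200b-3p mimic (adjusted p = 0.0221), 0.14 with the inhibitor (adjusted p = 0.0944) and 0.03 in MIX (adjusted p = 0.787). It was picked out after its values were seen, because it completes the complex.

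NOP16, a nucleolar protein of large-subunit assembly, had 37.5 and 32.8 CPM in miRcontrol and 19.7 and 18.95 in miR3124_mimic. With the inhibitor it had 36.8 and 38.3, with the miR-200b-3p mimic 44.0 and 45.4, and in MIX 37.3 and 37.1. The MIX libraries lay between those of miRcontrol, the miR-3124-5p mimic libraries far below them and the miR-200b-3p mimic libraries above. NOP16 fell by 0.86 with the miR-3124-5p mimic (SE 0.0822, adjusted p = 1.39e-12) and rose by 0.35 with the miR-200b-3p mimic (SE 0.072, adjusted p = 9.08e-05). RRS1, which helps to bring the 5S RNA particle into the large subunit, had 47.2 and 43.6 CPM in miRcontrol and 34.5 and 31.3 in miR3124_mimic. The values were 44.0 and 45.7 with the miR-200b-3p mimic, 53.6 and 57.1 in MIX and 69.0 and 68.0 with the inhibitor. It fell by 0.47 with the miR-3124-5p mimic (adjusted p = 1.35e-07), and it had the largest rise of the 38 genes with the inhibitor, 0.59 (SE 0.0612, adjusted p = 7.70e-11). In MIX it rose by 0.29 (adjusted p = 1.86e-04).

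RRP1B, a nucleolar protein linked to large-subunit assembly, went against the other large-subunit genes with the miR-3124-5p mimic, and is described for that reason, after its values were seen. It had 141 and 143 CPM in miRcontrol and 169 and 171 in miR3124_mimic. Its libraries had 156 and 150.001 with the inhibitor, 111 and 112 with the miR-200b-3p mimic and 165 and 175 in MIX. The miR200b_mimic libraries were below all others. RRP1B rose by 0.26 with the miR-3124-5p mimic (SE 0.0429, adjusted p = 1.66e-06) and by 0.26 in MIX (adjusted p = 1.31e-06), and fell by 0.35 with the miR-200b-3p mimic (adjusted p = 1.19e-08). Over the 11 genes of the large subunit, the inhibitor raised 8 and lowered none, MIX raised 4 and lowered 1, and the miR-200b-3p mimic raised 1 and lowered 3. Of all tested genes, 17.5% rose and 18.2% fell with the inhibitor. The shares were 21.5% higher and 21.1% lower in MIX, and 21.4% and 19.1% with the miR-200b-3p mimic. PPAN, among the 11, overlaps the readthrough gene PPAN-P2RY11, so its count is uncertain.

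**Figure D2:**
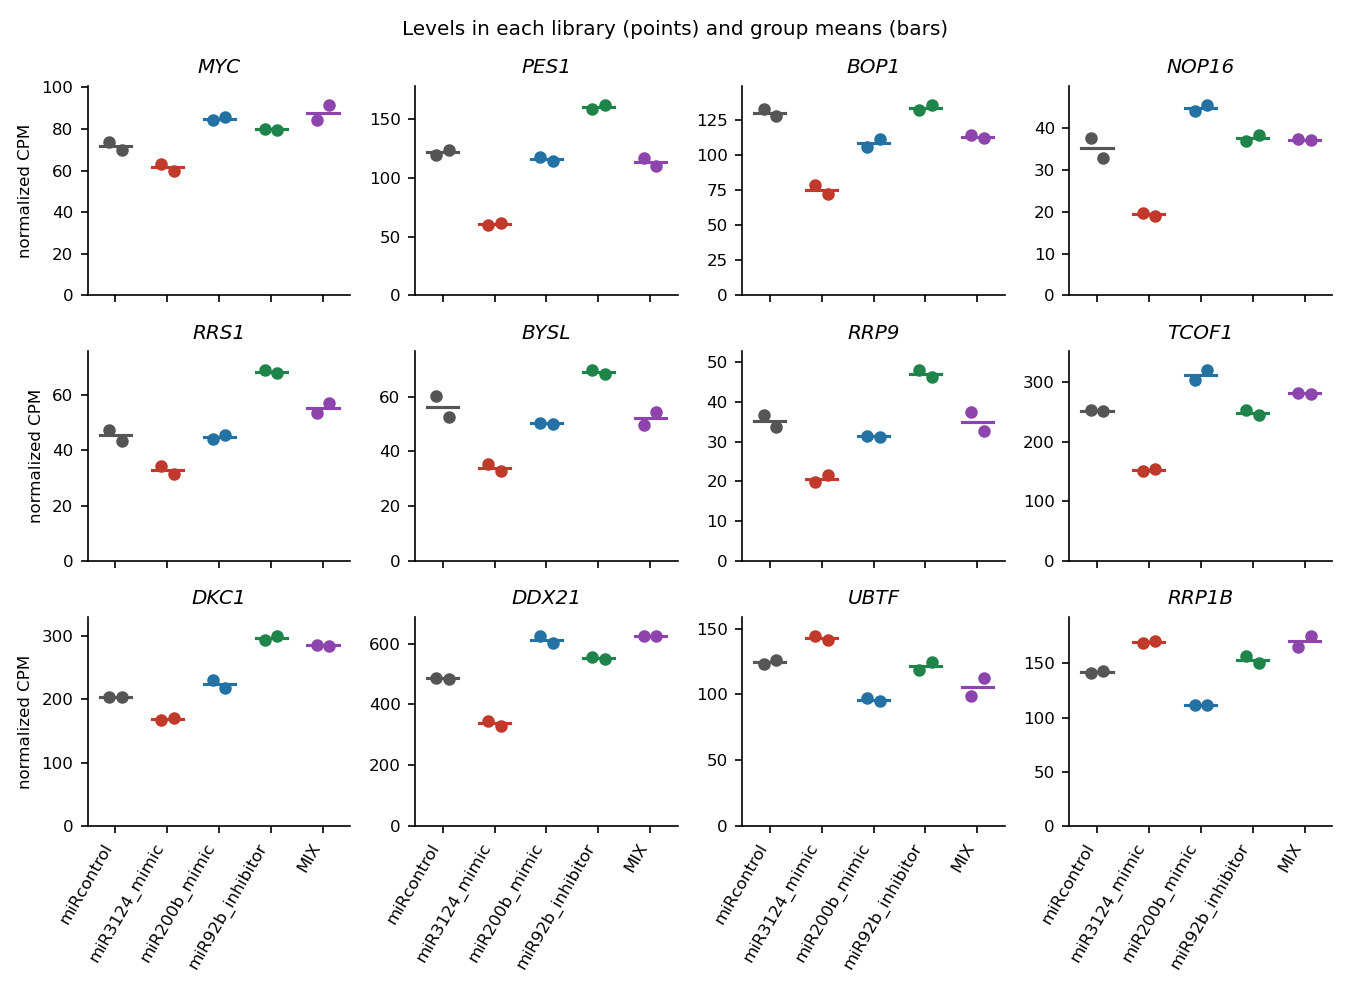
Normalized CPM of 12 genes (1 panel each, axes from 0) in each library (points) of the 5 groups, with the group mean as a bar. In 10 of the panels the miR3124_mimic libraries are the lowest, and in UBTF and RRP1B they lie above both miRcontrol libraries.

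Of the 9 small-subunit genes, 8 fell with the miR-3124-5p mimic and none rose, with a median of -0.42, and all 9 rose with the inhibitor, with a median of 0.29. In MIX 5 rose and none fell, and with the miR-200b-3p mimic 3 rose and 3 fell. Over all tested genes, 25.3% fell and 25.7% rose with the miR-3124-5p mimic, and 18.2% fell and 17.5% rose with the inhibitor. The shares were 21.1% lower and 21.5% higher in MIX, and 19.1% and 21.4% with the miR-200b-3p mimic. RRP9 encodes a protein of the U3 snoRNP, which is needed for early cleavages of the precursor. It had 36.7 and 33.6 CPM in miRcontrol and 19.8 and 21.5 in miR3124_mimic. The inhibitor libraries had 47.9 and 46.1, those of MIX 37.4 and 32.7 and those of the miR-200b-3p mimic 31.5 and 31.2. The MIX libraries spanned those of miRcontrol, and the miR3124_mimic and inhibitor libraries lay clear of them on opposite sides. RRP9 fell by 0.76 with the miR-3124-5p mimic (SE 0.0833, adjusted p = 7.29e-11) and rose by 0.42 with the inhibitor (SE 0.0721, adjusted p = 7.44e-06).

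BYSL encodes bystin, a factor of late small-subunit assembly. Its levels were 60.2 and 52.5 CPM in miRcontrol and 35.2 and 32.9 in miR3124_mimic. In MIX there were 49.9 and 54.5, with the inhibitor 69.7 and 68.5 and with the miR-200b-3p mimic 50.5 and 49.99. The miRcontrol libraries were the most spread of any group for this gene. BYSL fell by 0.73 with the miR-3124-5p mimic (SE 0.069, adjusted p = 1.26e-12) and rose by 0.29 with the inhibitor (SE 0.0611, adjusted p = 1.33e-04). The fall of 0.17 with the miR-200b-3p mimic (adjusted p = 0.0383) was -0.06 without miRcontrol replicate 1 and then not past the threshold. The small-subunit gene that did not pass the test with the miR-3124-5p mimic was NOB1, the endonuclease that makes the last cut of the small subunit's RNA, with a log2 fold change of -0.06 (adjusted p = 0.445). NOB1 rose by 0.37 in each of the other 3 transfected groups (adjusted p between 2.00e-06 and 4.86e-06), and was picked out after its values were seen.

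Genes of RNA polymerase I transcription were less uniform. Of the 6 tested, 3 fell and 1 rose with the miR-3124-5p mimic (median -0.04). With the inhibitor 2 rose and none fell, in MIX 3 rose and 2 fell, and with the miR-200b-3p mimic 2 rose and 2 fell. Over all tested genes, 25.3% fell and 25.7% rose with the miR-3124-5p mimic, and 18.2% fell and 17.5% rose with the inhibitor. The shares were 21.1% lower and 21.5% higher in MIX, and 19.1% and 21.4% with the miR-200b-3p mimic. Counts from 6 genes do not set this role apart from those shares. The median of -0.04 includes RRN3, which could not be read. Without RRN3, the median log2 ratio to the miRcontrol mean was -0.19 in miR3124_mimic library 1 and -0.30 in library 2. TCOF1 encodes treacle, a nucleolar scaffold for polymerase I transcription. It had 253 and 251.5 CPM in miRcontrol and 149.8 and 153.5 in miR3124_mimic. The values were 304 and 319.5 with the miR-200b-3p mimic, 282 and 280.2 in MIX and 252.5 and 245 with the inhibitor. TCOF1 thus moved in opposite directions with the 2 mimics. It fell by 0.73 with the miR-3124-5p mimic (SE 0.0406, adjusted p = 1.63e-20), rose by 0.31 with the miR-200b-3p mimic (SE 0.0383, adjusted p = 4.64e-09) and by 0.16 in MIX (adjusted p = 6.29e-04), and had -0.02 with the inhibitor (adjusted p = 0.736).

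UBTF, the upstream binding factor of ribosomal RNA genes, moved opposite to TCOF1 with each mimic and in MIX, and was picked out after its values were seen. It had 123 and 126 CPM in miRcontrol and 145 and 141 in miR3124_mimic. Its libraries had 119 and 125 with the inhibitor, 97.1 and 95.3 with the miR-200b-3p mimic and 99.0 and 112 in MIX. UBTF rose by 0.19 with the miR-3124-5p mimic (SE 0.0479, adjusted p = 6.54e-04), fell by 0.38 with the miR-200b-3p mimic (SE 0.0506, adjusted p = 2.39e-08) and fell by 0.24 in MIX (adjusted p = 5.94e-05). RRN3, the initiation factor that links the polymerase to its promoter, could not be read. Its symbol stands on 2 rows of the tables, with 3 to 25 counts in all per library, and its log2 fold changes of 0.38 to 1.08 had SEs of 0.536 or more and adjusted p of 0.101 or more.

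The 4 abundant nucleolar genes, NCL, NPM1, GNL3 and DDX21, all fell with the miR-3124-5p mimic and all rose with the inhibitor. Over all tested genes, 25.3% fell with that mimic and 17.5% rose with the inhibitor. DDX21 had 487 and 484 CPM in miRcontrol and 347 and 330.3 in miR3124_mimic. The inhibitor libraries had 557 and 551, those of MIX 624 and 623.5 and those of the miR-200b-3p mimic 625.5 and 601. It fell by 0.52 with the miR-3124-5p mimic (SE 0.0363, adjusted p = 6.55e-17), and rose by 0.34 with the miR-200b-3p mimic (adjusted p = 4.51e-11), by 0.19 with the inhibitor (adjusted p = 2.41e-05) and by 0.36 in MIX (adjusted p = 4.64e-12). DDX21 was the only one of the 4 that passed the test with the miR-200b-3p mimic.

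Of the 6 tested genes of the snoRNPs, among them their chaperone NOLC1, 3 fell and none rose with the miR-3124-5p mimic. With the inhibitor 5 rose and in MIX 5, with no fall in either, and 3 rose and 2 fell with the miR-200b-3p mimic. Over all tested genes, 25.3% fell and 25.7% rose with the miR-3124-5p mimic, and 18.2% fell and 17.5% rose with the inhibitor. The shares were 21.1% lower and 21.5% higher in MIX, and 19.1% and 21.4% with the miR-200b-3p mimic. DKC1 encodes dyskerin, the enzyme of the H/ACA snoRNPs that turns uridine into pseudouridine. It had 204 and 203 CPM in miRcontrol and 167 and 170.1 in miR3124_mimic. In MIX there were 286 and 285, with the inhibitor 294 and 300.001 and with the miR-200b-3p mimic 230.2 and 217. The inhibitor and MIX libraries stood well above the rest. DKC1 rose by 0.54 with the inhibitor (SE 0.0387, adjusted p = 1.01e-15) and by 0.49 in MIX (SE 0.0387, adjusted p = 1.13e-14), rose by 0.13 with the miR-200b-3p mimic (adjusted p = 0.00602) and fell by 0.27 with the miR-3124-5p mimic (SE 0.0408, adjusted p = 1.88e-07). Fibrillarin, the methylating enzyme of the box C/D snoRNPs, could not be read: FBL stands on 2 rows with at most 9 counts in any library, too few for the filter, although its product is abundant in every growing cell. PUS7, a stand-alone pseudouridine synthase, had 48.9 CPM in both miRcontrol libraries and 37.8 and 36.1 in miR3124_mimic. The values were 43.1 and 41.4 with the miR-200b-3p mimic, 43.4 and 45.4 in MIX and 50.4 and 48.4 with the inhibitor. It fell by 0.41 with the miR-3124-5p mimic (SE 0.0656, adjusted p = 8.54e-07) and by 0.21 with the miR-200b-3p mimic (adjusted p = 0.0066).

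**Figure D3:**
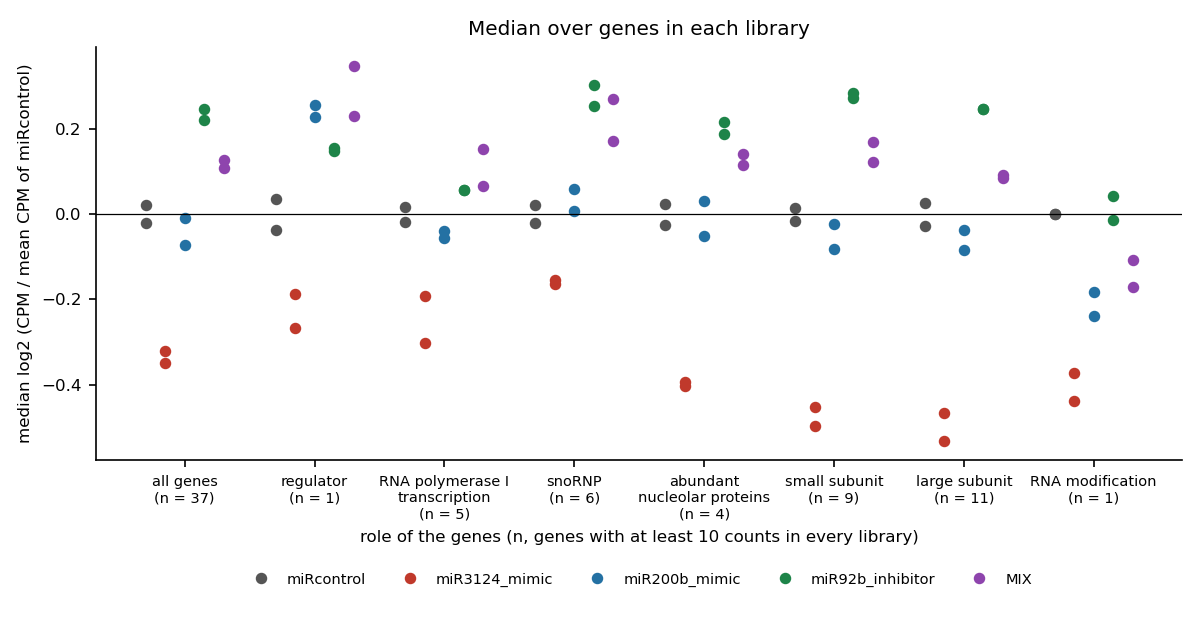
Median log2 ratio of each library's CPM to the miRcontrol mean, over the genes of each role with at least 10 counts in every library (n under each role; RRN3 and FBL did not meet this), for the 5 groups (colours, 1 point per library). Over 37 genes the medians were -0.32 and -0.35 in the miR3124_mimic libraries, 0.25 and 0.22 in the miR92b_inhibitor libraries and 0.11 and 0.13 in MIX, while the miR200b_mimic libraries (-0.01 and -0.07) lay close to those of miRcontrol (0.02 and -0.02).

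The groups were also compared with each other directly. MIX contained the miR-3124-5p mimic at an amount that is not known, so these comparisons may differ in dose. Of the 38 genes, 34 were higher in MIX than with that mimic alone and 1 was lower, with a median of 0.52 (background 25.3% higher and 23.8% lower). The lower gene was UBTF (-0.43, adjusted p = 1.81e-10). NOP16 differed the most, by 0.95 (SE 0.0808, adjusted p = 7.62e-14), followed by PES1 at 0.90 (SE 0.0502, adjusted p = 3.54e-20) and TCOF1 at 0.89 (SE 0.0401, adjusted p = 1.54e-23). Against the miR-200b-3p mimic alone, 17 genes were higher in MIX and 2 were lower, TCOF1 (-0.15, adjusted p = 0.00133) and NOP16 (-0.27, adjusted p = 0.00204), with a median of 0.13 (background 18.2% higher and 20.4% lower). This count was 11 with DESeq2. RRP1B was the highest of the called genes in this comparison, at 0.61 (SE 0.0441, adjusted p = 7.72e-16). Against the miR-92b inhibitor alone, 5 were higher in MIX and 19 lower, with a median of -0.12 (background 19.7% higher and 19.9% lower). PES1 (-0.50, adjusted p = 3.24e-13), RRP9 (-0.43, adjusted p = 3.15e-06) and BYSL (-0.40, adjusted p = 4.13e-07) were among the lower genes. The 5 higher genes, named after their values were seen, were MYC (0.14, adjusted p = 0.0287, lost with DESeq2 and 0.07 without MIX replicate 2), TCOF1, NOLC1, DDX21 and RRP1B, and without MIX replicate 2 or miR92b_inhibitor replicate 2 they numbered 3. The lower genes numbered 12 without MIX replicate 1.

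The widest separation by the median, over all 10 comparisons made, was between the miR-3124-5p mimic and the miR-92b inhibitor. There, 35 genes were lower with the mimic and 2 higher, UBTF and RRP1B, with a median of -0.58 (background 29.4% lower and 29.5% higher), and 4 genes passed a fold of 2. These were PES1 (-1.40, SE 0.0486, adjusted p = 2.64e-28), RRP9 (-1.18, SE 0.0796, adjusted p = 1.25e-17), RRS1 (-1.06, SE 0.0652, adjusted p = 4.85e-19) and BYSL (-1.02, SE 0.0668, adjusted p = 4.48e-18). Between the 2 mimics, 28 genes were lower with miR-3124-5p and 3 higher, with a median of -0.42 (background 29.9% lower and 27.9% higher). NOP16 (-1.21, SE 0.0804, adjusted p = 7.26e-18) and TCOF1 (-1.04, SE 0.0403, adjusted p = 1.35e-26) passed a fold of 2. The miR-200b-3p mimic was below the inhibitor for 27 genes and above it for 4, with a median of -0.27 (background 24.8% lower and 25.6% higher).

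**Figure D4:**
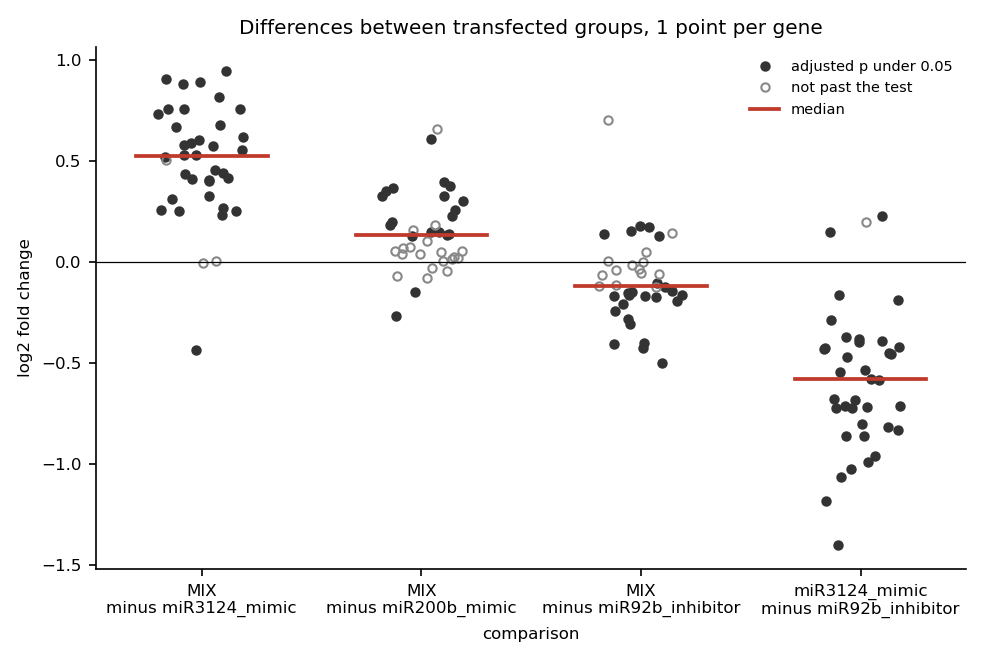
Log2 fold change of the 38 tested genes (points, filled at an adjusted p under 0.05) in 4 comparisons between transfected groups, with the median as a red line. The medians were 0.52 for MIX minus miR3124_mimic, 0.13 for MIX minus miR200b_mimic, -0.12 for MIX minus miR92b_inhibitor and -0.58 for miR3124_mimic minus miR92b_inhibitor.

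Further genes of the same pathway, taken from lists of known assembly factors, were counted in the same way. Of all tested genes, 25.3% fell and 25.7% rose with the miR-3124-5p mimic, and 18.2% fell and 17.5% rose with the inhibitor. In MIX 21.1% fell and 21.5% rose, and with the miR-200b-3p mimic 19.1% fell and 21.4% rose. Of 39 other small-subunit factors, 29 fell and none rose with the miR-3124-5p mimic, and 31 rose and none fell with the inhibitor. Among them, NOC4L fell by 1.21 with the miR-3124-5p mimic (SE 0.112, adjusted p = 5.76e-13). Of 35 other large-subunit factors, 22 fell and 3 rose with the mimic, and 27 rose and 2 fell with the inhibitor. WDR18 was an exception, with 0.95 with the mimic (SE 0.0686, adjusted p = 1.94e-16) and -0.36 with the inhibitor (adjusted p = 2.05e-04), while PAK1IP1 fell by 0.51 with the mimic (adjusted p = 1.56e-08) and rose by 0.79 with the inhibitor (adjusted p = 4.55e-15). Of 9 other RNA polymerase I genes, 4 fell and 1 rose with the mimic and 4 rose with the inhibitor, and of 10 other snoRNP proteins and assembly factors, 6 fell and 1 rose with the mimic and 7 rose with the inhibitor, with no fall in either list. In MIX, 16 of the small-subunit, 22 of the large-subunit, 3 of the polymerase I and 2 of the snoRNP genes rose, and 3, 3, 2 and 3 fell. With the miR-200b-3p mimic, 8, 14, 1 and 2 rose and 5, 6, 3 and 2 fell.

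The ribosomal proteins themselves were measured in the same libraries. Of 82 tested genes for cytosolic ribosomal proteins, 63 fell and none rose with the miR-3124-5p mimic (median -0.18), and 68 rose and 2 fell with the inhibitor (median 0.21). In MIX 21 rose and 6 fell (median 0.06), and with the miR-200b-3p mimic 2 rose and 9 fell (median -0.04). The background was 21.5% higher and 21.1% lower in MIX, and 21.4% higher and 19.1% lower with the miR-200b-3p mimic. It was 25.7% higher and 25.3% lower with the miR-3124-5p mimic, and 17.5% higher and 18.2% lower with the inhibitor.

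Genes around MYC did not follow one direction. Of 15 genes for its partners and its turnover, 2 rose and 5 fell with the miR-3124-5p mimic, and 5 rose and 4 fell with the miR-200b-3p mimic. With the inhibitor 4 rose and 5 fell, and in MIX 5 rose and 6 fell. The background was 25.7% higher and 25.3% lower with the miR-3124-5p mimic, and 21.4% and 19.1% with the miR-200b-3p mimic. It was 17.5% and 18.2% with the inhibitor, and 21.5% and 21.1% in MIX. The largest fall of this list was that of AURKA, by 1.29 with the miR-3124-5p mimic and by 1.01 in MIX. MXD1, which competes with MYC for MAX, rose by 0.94 with the miR-200b-3p mimic (SE 0.0974, adjusted p = 2.87e-11) and by 0.68 in MIX (adjusted p = 1.06e-07). MXD4 and MXI1, on the same list, went the other way. The mean of MXD4 was 49.2 CPM in miRcontrol, 39.6 in miR200b_mimic and 37.1 in MIX, and that of MXI1 was 13.98, 11.5 and 11.2. FBXW7, the ubiquitin ligase subunit that marks MYC for breakdown, rose in all 4 transfected groups, by 0.49 with the miR-3124-5p mimic, 0.69 with the miR-200b-3p mimic, 0.33 with the inhibitor and 0.68 in MIX (adjusted p from 1.30e-08 to 0.00368). Of 18 other well known targets of MYC, 16 fell and none rose with the miR-3124-5p mimic, and 10 rose and 2 fell with the inhibitor. In MIX 6 rose and 4 fell, and with the miR-200b-3p mimic 3 rose and 6 fell. SRM, which makes spermidine, had the largest fall of these, from 125 and 122.5 CPM in miRcontrol to 14.9 and 16.6 in miR3124_mimic and 60.4 and 60.9 in MIX. ODC1, the enzyme before it in polyamine synthesis, rose by 0.63 with the inhibitor (adjusted p = 2.25e-18) and by 0.55 in MIX (adjusted p = 4.74e-17), and fell by 0.25 with the miR-3124-5p mimic (adjusted p = 4.91e-07).

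Proliferation genes moved beside these results. Of 10, 9 fell and 1 rose with the miR-3124-5p mimic (median -0.55), and all 10 fell with the miR-200b-3p mimic (median -0.34) and in MIX (median -0.52). With the inhibitor 7 fell and 1 rose (median -0.23). The background was 25.3% lower with the miR-3124-5p mimic, 19.1% with the miR-200b-3p mimic, 21.1% in MIX and 18.2% with the inhibitor. So the proliferation genes were lower on the median in all 4 transfected groups, while the median of the 38 tested genes was below 0 with the miR-3124-5p mimic and above 0 with the inhibitor and in MIX. In MIX 14 of the 38 were not called, and the other RNA polymerase I genes and the other snoRNP genes had medians of -0.05 and -0.04. MKI67, the gene of the Ki-67 antigen, fell by 1.24 with the miR-3124-5p mimic (SE 0.0342), by 0.74 with the miR-200b-3p mimic (SE 0.0337), by 0.67 with the inhibitor (SE 0.0335) and by 1.05 in MIX (SE 0.0338), each with an adjusted p of 3.43e-21 or less. The part of cell proliferation in the changes of the pathway was not tested.

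MYC and MAX bind the E-box, CACGTG, which reads the same on both strands, so these letters were looked for in promoters from RefSeq (GRCh38.p14, 250 bases before to 50 after the start of each gene). Of the 39 genes 31 had an entry, and MYC, TCOF1, NOP58, NOLC1, RRP12, BOP1, RRP1B and RRS1 did not. The letters were in 10 of these 31 (32.3%), in 27 of 83 other ribosome biogenesis genes (32.5%), in 9.83% of the 10434 promoters of genes past the filter and in 7.43% of all 27305. The 10 were FBL, NOP14, WDR43, RRP9, BYSL, UTP20, NOP2, PES1, MRTO4 and PUS7. In 8 of the 10 they began after the start, and in RRP9 and UTP20 shortly before it. In the 250 bases before the start alone, 1 of 31 (3.23%) held all the letters, against 15 of 83 other ribosome biogenesis genes (18.1%) and 8.69% of the genes past the filter. The windows of 30 bases are shown for the 3 genes of this group with the deepest falls with the miR-3124-5p mimic, PES1 (chr22:30591880-30591909, minus strand), RRP9 (chr3:51941892-51941921, minus strand) and BYSL (chr6:41921515-41921544, plus strand). They are written 5′ to 3′ along the gene with the E-box in capitals, and its first base lies at 13, -5 and 28 from the RefSeq start. For these 3 genes that start lies inside the GENCODE span given above, which reaches to the outermost annotated exon.
PES1: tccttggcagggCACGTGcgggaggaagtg
RRP9: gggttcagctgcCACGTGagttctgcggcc
BYSL: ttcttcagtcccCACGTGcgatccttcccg

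With the miR-3124-5p mimic, the 9 tested genes with these letters had log2 fold changes from -1.00 to -0.34 (median -0.52), and the 21 without them from -0.86 to 0.58 (median -0.27). The value of 0.58 was that of RRN3, which could not be read. With the inhibitor the medians were 0.24 with the letters and 0.25 without. In MIX they were 0.05 and 0.13, and with the miR-200b-3p mimic -0.07 and -0.01. The 9 genes with the letters were small-subunit genes, large-subunit genes and PUS7. All tested polymerase I, snoRNP and abundant nucleolar genes with a promoter entry lacked the letters. The letters and the role of a gene are thus partly confounded in these medians. These are descriptions with no test, and a match of letters is not a site.

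The transfected miRNAs pair with target RNAs mainly through the seed, bases 2 to 8 of the mature strand. The mature sequences, from RefSeq, are shown with the seed in capitals, to give the letters whose full complement was searched for. Shorter matches and matches outside the 3′UTR were not searched. Both arms of miR-92b are shown because the labels do not say which one the inhibitor blocks. All 4 are encoded on chromosome 1, plus strand.
hsa-miR-3124-5p: uUCGCGGGcgaaggcaaaguc
hsa-miR-200b-3p: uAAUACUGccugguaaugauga
hsa-miR-92b-5p: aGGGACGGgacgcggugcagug
hsa-miR-92b-3p: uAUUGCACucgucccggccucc

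The complement of each seed was looked for on the sense strand of the 3′UTRs (GENCODE v29, GRCh38), in all 39 genes and in 12252 tested genes with an annotated 3′UTR. CCCGCGA, for miR-3124-5p, was in none of the 39 genes and in 0.62% of tested genes. With a share this low, absence from a list of 39 is likely for any genes, so it does not set these apart. Whether this mimic acts on them directly was not tested. CAGTATT, for miR-200b-3p, was in 5 of 39 (12.8%, against 19.5% of tested genes), namely POLR1B, DKC1, NPM1, WDR12 and NIP7. With the miR-200b-3p mimic, POLR1B (-0.21, adjusted p = 0.0105) and WDR12 fell, DKC1 rose, and NPM1 (-0.01, adjusted p = 0.792) and NIP7 (-0.07, adjusted p = 0.357) did not pass the test. CCGTCCC, for miR-92b-5p, was in none of the 39, against 4.18% of tested genes. GTGCAAT, for miR-92b-3p, was in 5 of 39 (12.8%, against 13.1%), namely POLR1A, RRN3, NOP14, NOB1 and PUS7. With the inhibitor, NOP14 (0.17, adjusted p = 0.0086) and NOB1 rose, POLR1A had 0.06 (adjusted p = 0.353) and PUS7 0.01 (adjusted p = 0.893), and RRN3 could not be read.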

How the data were processed

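Poly(A) RNA was made into directional paired-end libraries. Per the paper's methods and the submitters' processing notes, the authors trimmed the reads (FASTX_Trimmer, BBMap), mapped them with TopHat to GRCh38 and deposited raw read counts per gene. The counting tool, annotation and strand setting are not given in the sources used here. Each of the 10 tables had 58173 rows, and 5771 rows that repeat a symbol were summed into it. No per-sample column was left unused.

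Counts were analysed with R 4.3.3 (edgeR 4.0.16, with limma 3.58.1). Low counts were removed by filterByExpr, libraries were scaled by RLE, and genes were tested in one quasi-likelihood fit of all 10 libraries without covariates. The SE is the absolute log2 fold change divided by the square root of F. The gene tests were tried on simulated counts for the comparisons with miRcontrol. The searches of promoters and 3′UTRs had no such trial. Alternatives were TMM, library totals, DESeq2 1.42.0, the edgeR exact test, a fit of the 2 groups compared and a replicate block. Others were leaving out each library, no filter, and a minimum of 10 counts in each library. Scaling factors set without the described and listed genes were added after seeing the data. The numbering of replicates paired no libraries.

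The genes, lists and tests were chosen with earlier results of these data known. Genes given in full were MYC, those past a fold of 1.5 with an adjusted p under 0.05 against miRcontrol, and the most changed of each role. Others were singled out after their values were seen, as said there. With totals of 13587666 to 18503890 counts, the common dispersion was 0.000751.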

Additional observations from a re-analysis of the deposited data

How the results depend on the processing

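Of 390 counts and medians recomputed under the alternatives, 364 stayed within 1.5 times the count or 1 SD of the value, and of 1551 values of single genes and of the E-box share, 1517 stayed on the same side of the threshold. None reversed, 28 lost and 5 gained the call, and the E-box share moved to 3.23% with only the bases before the start. For MIX minus miR200b_mimic, library totals gave a median of 0.16 and DESeq2 11 genes higher. For miR3124_mimic minus miR200b_mimic, library totals and a minimum of 10 counts in every library each gave 5 genes higher, and the median was -0.38 with library totals and -0.44 with no filter. For miR3124_mimic minus miR92b_inhibitor, the median was -0.595 with TMM, -0.56 with library totals, -0.59 with no filter, -0.56 with a minimum of 10 counts and -0.59 with scaling factors set without the described and listed genes, an alternative chosen after seeing the data. The cause of these shifts was not tested. Leaving out each library in turn gave medians of -0.053 to 0.0098 and 7 to 11 genes lower for miR200b_mimic minus miRcontrol (7 without miR200b_mimic replicate 2), a median of 0.11 to 0.16 for MIX minus miRcontrol, 0.50 to 0.56 for MIX minus miR3124_mimic and 0.092 to 0.117 for MIX minus miR200b_mimic. It gave 3 to 5 genes higher and 12 to 17 lower for MIX minus miR92b_inhibitor, and a median of -0.60 to -0.56 with 1 to 2 genes higher for miR3124_mimic minus miR92b_inhibitor (1 without miR92b_inhibitor replicate 2). RRN3 gained a call in MIX against miRcontrol without miRcontrol replicate 2 (2.18) and against miR200b_mimic without miR200b_mimic replicate 2 (2.20), at the counts given above.

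The libraries share replicate numbers only as names: deviations of same-numbered libraries correlated at -0.0625 to 0.0613 between groups over 10419 genes. With the replicate block, 30 genes were lower with the miR-3124-5p mimic, 29 higher with the inhibitor, and 21 higher and 3 lower in MIX, and no call of a gene given in full changed. With 2 libraries per group, small differences such as that of MYC with the inhibitor lie near the limit of what this design can separate.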
